A study of Mus musculus with 15 samples.

Results

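What remained of the conjunctival response to ovalbumin (OVA) once the interleukin-4 receptor alpha chain (IL-4Ra) was blocked was read from 10 of the 15 RNA-Seq libraries of the study. The 5 mice challenged in the eye with OVA and given anti-IL-4Ra were set against the 5 mice challenged with PBS. Genes were tested without regard to their change. The comparison and the gene lists were chosen with earlier results of these data known. A gene was tested if 5 or more of the 15 libraries held 10 or more counts of it, which left 19006 of the 55487 genes listed. All mice were female WT BALB/c (written BALC/c in the labels), aged 9 to 12 weeks. They had all been sensitized with OVA through an ear treated daily with 2.5 nmol MC903 for 7 days, so the PBS group was an already sensitized control and not a naive one. MC903 (calcipotriol) is a vitamin D analog that evokes dermatitis resembling atopic dermatitis. The eyes then received PBS or 250 μg OVA per drop once daily for 7 days. The blocking Ab, or an isotype control Ab, was dosed at 25 mg/kg after sensitization and during the challenge, and for the PBS group the labels give no Ab. The comparison therefore differs in both the challenge and the Ab, and an effect of the Ab on unchallenged tissue cannot be told apart from an incomplete return of the OVA response. The 5 isotype-treated, OVA-challenged mice are given beside it for scale. They were compared with the same 5 PBS libraries, so both comparisons share their control.

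As background, IL-4Ra is the signaling chain shared by the receptors for IL-4 and IL-13, and it acts through JAK kinases and the transcription factor STAT6. In allergic eye disease this axis drives IgE class switching, alternative macrophage activation, eotaxin and mucus gene expression and epithelial responses. Lymphocyte priming in the draining nodes, the recruitment of monocytes by CCR2 ligands and the secretion of IgG and IgA by plasma cells can proceed through other signals. In bulk tissue, fewer cells of a type and less RNA per cell cannot be told apart.

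Under anti-IL-4Ra, 434 genes (2.28% of those tested) lay above the PBS level and 273 (1.44%) lay below it at an adjusted p under 0.05 in edgeR's quasi-likelihood test. In the isotype-treated group the same test called 1812 genes higher (9.53%) and 1423 lower (7.49%) than PBS. Of the 434 genes above PBS under the Ab, 183 were also called above PBS in the isotype group, none was called below, and 251 were not called there. The genes called higher in both had a median log2 fold change over PBS of 0.84 under anti-IL-4Ra and 1.03 with isotype. The changes were modest. The median log2 fold change was 0.56 among the genes called higher and -0.37 among those called lower, against -0.0043 over all genes tested. At least 2-fold differences were found for 97 of the genes called higher and 26 of those called lower. The 5 anti-IL-4Ra libraries did not overlap with the 5 PBS libraries for 238 of the called higher and 201 of the called lower genes, where 2.98% and 3.12% of all tested genes did not overlap in those directions.

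The libraries held 48622246 to 87745024 counts. The dissected tissue carried conjunctival markers in every library (*Krt13* at 554 to 1179 and *Muc5ac* at 994 to 2024 CPM, the usual per-library scaling of counts) together with muscle (*Ckm* at 651 to 2057 CPM) and lacrimal RNA. The lacrimal share moved with the group. The lacrimal score, the mean log2 CPM of 15 acinar genes, was 2.33 to 5.49 in the PBS libraries and 2.30 to 5.49 in the isotype libraries. It was 6.09 to 6.19 in 4 anti-IL-4Ra libraries and 3.40 in replicate 3. Summed over the list, these genes took 577 to 4237 CPM in the PBS group and 671 to 11788 CPM in the anti-IL-4Ra group. No gene of the list was at 0 in a PBS library, and *Bpifa2* was at 0 in at least 1 anti-IL-4Ra library. Of the 15 genes, 2 were called higher. A separate list of 22 tear protein genes summed to 16.6 to 89826 CPM with PBS and 32.0 to 56590 CPM with isotype. With anti-IL-4Ra that sum was 1997 to 267513 CPM, with a group median of 198599 CPM beside 5994 CPM with PBS. The counts of 434 and 273 genes called over all genes changed in the fits that bear on this. With the lacrimal score as a covariate, 56 of the 434 genes stayed called higher and 18 of the 273 stayed called lower. The 378 genes no longer called higher had a median log2 fold change of 0.49 without the covariate and 0.33 with it. These genes were picked by their call in the same libraries, so this median does not show whether their difference remained. With replicate 3 of the anti-IL-4Ra group left out, the counts rose to 1301 and 728. Leaving out another library lowered them to as few as 37 and 40. Values with the covariate are given beside the genes described in full and the lists that hold them. Counts called in a list stand beside 2.28% called higher and 1.44% called lower over all tested genes.

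**Figure D1:**
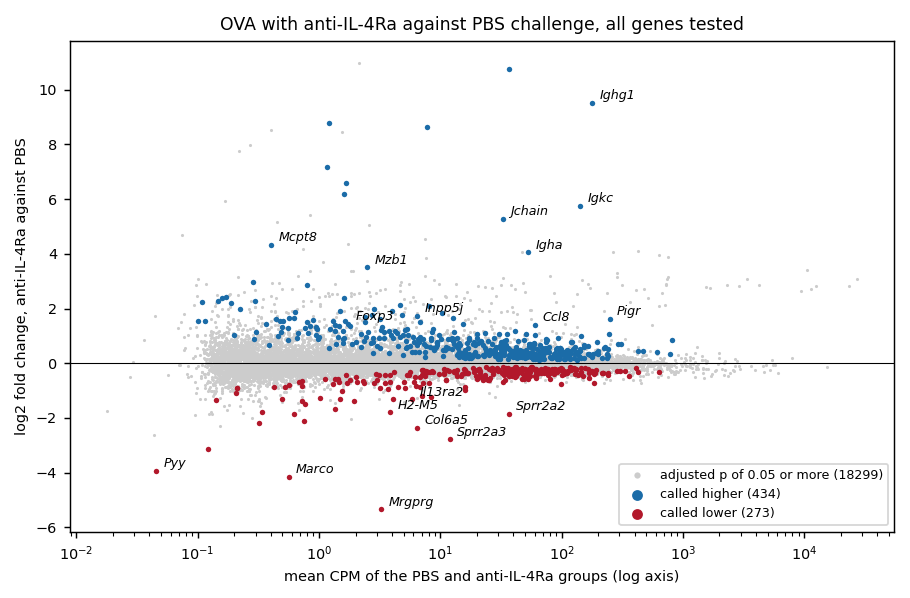
Each point is 1 of the 19006 genes tested, with the mean CPM of the PBS and anti-IL-4Ra groups on a log axis and the log2 fold change of anti-IL-4Ra against PBS on the vertical axis. The 434 genes called higher (blue) include *Ighg1* at a log2 fold change of 9.53, the 273 called lower (red) reach -5.34 for *Mrgprg*, and the unlabeled blue points above *Jchain* are immunoglobulin variable segments.

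The furthest fall below PBS was that of *Mrgprg*, an orphan receptor of the Mas-related family, whose gene lies on chromosome 7 (GRCm38, 143763710 to 143766993, minus strand). In PBS libraries 1 to 5 it stood at 6.41, 5.77, 5.43, 7.34 and 6.82 CPM. The anti-IL-4Ra libraries, again in replicate order, held 0.0852, 0.0603, 0.262, 0.0741 and 0.283 CPM, from 3 to 18 counts each. No library of either group came near the other. The log2 fold change was -5.34 ± 0.41 (adjusted p = 4.85e-05), with the SE after the sign and n = 5 per group as throughout. In the isotype group the gene was at 13.5 to 40.7 CPM, above PBS by 2.09 (adjusted p = 0.0013). With the lacrimal covariate the fall was -5.46 (adjusted p = 2.94e-04).

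The windows from 250 bases before to 50 bases after the RefSeq transcription start (GRCm38.p6) of 4 genes that ended below PBS are given because each holds the letters TTCNNNNGAA, a palindrome of the type STAT6 binds, shown in capitals. The 4 were chosen after their values were seen. Among other genes below PBS described further on, *Skint2* (2 matches) and *Sprr2a2* (1 match) also held it. No window of *Col6a5*, *Il13ra2*, *Ccl27a*, *Marco*, *Pyy*, *Skint7*, *Skint8* or *Ear2* did. The match begins 2 bases before the start in *Mrgprg*, 176 in *Sprr2a3*, 80 in *H2-M5* and 154 in *Ccl17*.
Mrgprg promoter, chr7:143766944-143767243, minus strand: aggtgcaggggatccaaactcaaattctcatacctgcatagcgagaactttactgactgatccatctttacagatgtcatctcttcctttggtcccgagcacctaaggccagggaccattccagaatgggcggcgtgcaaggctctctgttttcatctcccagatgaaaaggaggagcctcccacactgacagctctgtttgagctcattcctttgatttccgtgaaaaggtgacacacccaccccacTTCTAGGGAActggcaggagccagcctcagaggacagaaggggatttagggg
Sprr2a3 promoter, chr3:92285054-92285353, plus strand: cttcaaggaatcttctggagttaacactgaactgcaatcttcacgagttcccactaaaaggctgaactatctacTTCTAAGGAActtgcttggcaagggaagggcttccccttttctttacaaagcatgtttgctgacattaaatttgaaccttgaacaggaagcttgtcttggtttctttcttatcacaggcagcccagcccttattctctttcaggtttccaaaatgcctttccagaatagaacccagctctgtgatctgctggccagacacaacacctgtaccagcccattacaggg
H2-M5 promoter, chr17:36989484-36989783, minus strand: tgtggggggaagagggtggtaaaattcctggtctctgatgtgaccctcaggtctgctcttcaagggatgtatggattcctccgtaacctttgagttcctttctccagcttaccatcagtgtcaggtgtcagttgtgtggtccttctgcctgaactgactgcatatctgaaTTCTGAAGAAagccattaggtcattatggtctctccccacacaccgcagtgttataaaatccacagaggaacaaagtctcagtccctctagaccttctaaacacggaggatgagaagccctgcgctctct
Ccl17 promoter, chr8:94810203-94810502, plus strand: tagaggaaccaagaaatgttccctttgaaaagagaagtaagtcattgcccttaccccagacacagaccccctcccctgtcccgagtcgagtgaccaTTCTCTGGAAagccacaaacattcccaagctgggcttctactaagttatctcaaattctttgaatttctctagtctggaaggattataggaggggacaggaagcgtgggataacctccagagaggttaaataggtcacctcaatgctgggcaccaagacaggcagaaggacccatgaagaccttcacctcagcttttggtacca
A match describes the letters and shows no binding. The motif stood in 20 of 294 windows of genes called lower (6.80%), 26 of 395 of genes called higher (6.58%) and 967 of 16919 of all tested genes (5.72%). TTCNNNGAA, the spacing of the interferon-gamma type, was held by 8.16%, 9.37% and 7.03% in the same order. For GAAANNGAAA, the core of the interferon response type, the shares were 3.74%, 5.57% and 3.26%. GGGANNTTCC, of the NF-kB type, was in 2.04%, 1.77% and 1.48%. Both strands were searched with 1 window per annotated start, a window could hold more than 1 of the motifs, and the 209 genes called lower and 319 called higher that had a window were matched by symbol.

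With *Mrgprg*, 9 genes lay below PBS under anti-IL-4Ra while being called above PBS in the isotype group. Among them were *Col6a5*, *Sprr2a2*, *Sprr2a3*, *Pyy*, *Ear2*, *Hsd11b1* and *Otud7a*, the last 2 named after their values were seen. *Col6a5*, a collagen VI chain, stood at 11.96, 8.59, 10.7, 12.2 and 10.6 CPM in PBS libraries 1 to 5 and at 1.77, 2.59, 1.97, 1.98 and 2.20 CPM under anti-IL-4Ra. Its isotype libraries ranged from 39.5 to 99.5 CPM, so the 3 groups did not overlap. Against PBS the change was -2.36 ± 0.26 (adjusted p = 0.00139) under the Ab and 2.55 (adjusted p = 1.77e-04) with isotype, and the first was -2.38 (adjusted p = 0.00959) with the covariate.

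*Sprr2a3* encodes a small proline-rich protein of the cornified envelope. It read 37.8, 13.7, 23.9, 20.9 and 8.98 CPM in the PBS libraries and 2.71, 2.91, 4.17, 3.36 and 2.05 CPM in the anti-IL-4Ra libraries, a log2 fold change of -2.78 ± 0.40 (adjusted p = 0.00662), or -2.09 (adjusted p = 0.0395) with the covariate. The isotype libraries held 144 to 396 CPM. Every anti-IL-4Ra library was below every PBS library and every isotype library above them all. Its neighbor *Sprr2a2* fell from 113, 32.7, 62.9, 59.8 and 20.1 to 17.9, 17.9, 22.5, 11.7 and 9.78 CPM, -1.86 ± 0.43 (adjusted p = 0.036). PBS replicate 5 lay within the treated range, so these groups overlapped. With the covariate the *Sprr2a2* change was -1.07 (adjusted p = 0.29). The windows of the 2 genes share a stretch of 272 identical bases and the transcripts are close copies, so the division of reads between them is uncertain. Among the 33 cornified envelope genes tested, these were the 2 called lower (6.06%, beside 1.44% of all tested genes) and none was called higher. The median log2 fold change of the list was -0.28 beside 0.66 with isotype, where 15 were called higher and 1 lower. With the covariate it was -0.08, with 1 called lower. The medians of related epithelial lists were also below 0. They were -0.23 for surface keratins, -0.21 for conjunctival epithelium and -0.27 for protease inhibitors and kallikreins. In that order they were -0.02, -0.007 and -0.03 with isotype and -0.07, -0.05 and -0.12 with the covariate.

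Low-count and eosinophil genes of this set showed the same order. *Pyy*, the gut hormone peptide YY, had 11, 5, 2, 2 and 7 counts in the PBS libraries and 0, 0, 0, 0 and 1 in the anti-IL-4Ra libraries. Over the groups, PBS was higher by a ratio of 24.0 with a 95% counting interval of 3.96 to 984, and the adjusted p was 0.021. In the isotype libraries *Pyy* stood at 0.629 to 1.21 CPM. Of 11 itch and sensory genes, *Pyy* among them, 2 were called lower and none higher. No gene of this list was called with the covariate. *Ear2*, an eosinophil-associated ribonuclease, stood at 6.96, 5.72, 6.18, 9.73 and 4.97 CPM with PBS and 3.81, 4.14, 4.59, 2.0998 and 3.07 CPM with the Ab, -0.91 ± 0.23 (adjusted p = 0.0472), and at 10.01 to 18.4 CPM with isotype. With the covariate its change was -0.90 (adjusted p = 0.161), and that of *Pyy* had an adjusted p of 0.0655. *Hsd11b1*, which regenerates active glucocorticoid, changed by -0.70 (adjusted p = 0.0202) and *Otud7a*, a deubiquitinase, by -1.32 (adjusted p = 0.0349). *Ear2* and *Sprr2a2* were called in 9 of 25 and 13 of 25 alternative fits, where *Col6a5* was called in 24 of 25.

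A second set of genes stood below PBS under the Ab without being raised by OVA in the isotype group. *H2-M5*, a nonclassical MHC class I gene, was at 7.53, 5.17, 5.10, 6.44 and 5.80 CPM in the PBS libraries and at 1.28, 1.22, 2.36, 1.88 and 1.89 CPM in the anti-IL-4Ra libraries. The isotype libraries, at 4.65 to 5.50 CPM, lay beside PBS. Under the Ab the change was -1.80 ± 0.17 (adjusted p = 4.18e-04) and that with isotype -0.25 (adjusted p = 0.316). It was -1.68 (adjusted p = 0.00406) with the covariate, and the lacrimal-poor replicate 3, at 2.36 CPM, was itself below every PBS library. *H2-M2*, of the same family, changed by -0.84 (adjusted p = 0.0139) and *Mill1*, an MHC class I-like gene, by -0.85 (adjusted p = 0.00505). The fixed list of 20 MHC class I and antigen processing genes, which holds other nonclassical genes such as *H2-M3*, had none called in either direction. Its median log2 fold change was 0.07.

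*Il13ra2*, the decoy receptor that binds IL-13 with high affinity, read 10.5, 6.87, 8.19, 7.84 and 8.31 CPM with PBS and 2.83, 2.67, 3.35, 3.85 and 3.99 CPM with anti-IL-4Ra. The groups did not overlap, and the log2 fold change was -1.32 ± 0.16 (adjusted p = 0.00262), or -1.32 (adjusted p = 0.0195) with the covariate. With isotype it lay between them at 4.54 to 7.58 CPM and was also called below PBS, at -0.54 (adjusted p = 0.0295). *Cish*, a feedback inhibitor of cytokine receptors, changed by -0.48 (adjusted p = 0.0302) under the Ab. These were the 2 genes called lower among 15 of the IL-4 and IL-13 axis, 1 of them also with the covariate, and none was called higher. The ligand, receptor and factor genes themselves were not called, with *Il4ra* at -0.32 (adjusted p = 0.416), *Il13ra1* at -0.16 (adjusted p = 0.357), *Il4* at 1.33 (adjusted p = 0.0961), *Il13* at 0.60 (adjusted p = 0.204) and *Stat6* at -0.04 (adjusted p = 0.622).

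Chemokine genes and a run of *Skint* genes were among those below PBS. *Ccl17*, a ligand of CCR4, stood at 1.35, 1.09, 1.19, 1.66 and 0.756 CPM with PBS and 0.298, 0.181, 0.262, 0.371 and 0.307 CPM with the Ab, -2.103 ± 0.43 (adjusted p = 0.0255). The isotype libraries spread over 0.449 to 2.35 CPM, and with the covariate the change was -1.54 (adjusted p = 0.115). *Ccl27a*, the keratinocyte chemokine that binds CCR10, was at 21.6, 19.1, 16.8, 24.5 and 22.9 CPM with PBS and 7.37, 10.4, 10.9, 11.4 and 13.6 CPM with the Ab, -0.97 ± 0.14 (adjusted p = 0.00662), and its change was -0.97 (adjusted p = 0.0235) with the covariate. Neither gene's treated libraries overlapped with PBS. A set of 4 neighboring genes of the *Skint* family, butyrophilin-like molecules named for the selection of epidermal T cells, formed the 1 run of 3 or more adjacent called lower genes (chromosome 4, 111919392 to 112652248). *Skint2* read 7.49, 5.29, 4.65, 5.52 and 5.96 CPM with PBS and 1.64, 2.53, 2.04, 2.67 and 2.91 CPM with the Ab, -1.30 ± 0.17 (adjusted p = 0.00411). No library of one group reached the other. *Skint7* read 3.70, 2.90, 1.98, 2.83 and 2.60 CPM with PBS and 1.02, 1.09, 0.903, 1.11 and 1.20 CPM with the Ab, -1.40 ± 0.16 (adjusted p = 0.00139). *Skint8* changed by -0.89 (adjusted p = 0.00739) and *Skint1* by -0.70 (adjusted p = 0.0355). With isotype these 4 genes stood at log2 fold changes of -0.25, -0.37, -0.44 and 0.22, and among them *Skint8* was called (adjusted p = 0.0317). With the covariate *Skint2* and *Skint7* were at -1.22 (adjusted p = 0.0235) and -1.37 (adjusted p = 0.0137). Family members share sequence, so reads could be divided between them. The autoimmune regulator *Aire* changed by -1.48 (adjusted p = 0.0107), the macrophage elastase *Mmp12* by -1.19 (adjusted p = 0.0301) and the G-protein regulator *Rgs4* by -1.23 (adjusted p = 0.00739).

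A further set was below PBS in both OVA-challenged groups. Of the 273 genes called lower under the Ab, 123 were also called lower with isotype. *Marco*, a scavenger receptor of macrophages, stood at 0.715, 0.662, 0.283, 1.99 and 1.67 CPM with PBS and 0, 0.0603, 0.0437, 0.173 and 0.0236 CPM under the Ab, 0 to 7 counts a library. Its change was -4.15 ± 0.72 (adjusted p = 0.0148), and it was -3.27 (adjusted p = 0.00599) with isotype, where the libraries held 0.0337 to 0.21 CPM. With the covariate it was -4.58 (adjusted p = 0.0235). Of the other 14 resident macrophage and scavenger genes tested, *Cd5l* was called higher (2.41, adjusted p = 0.0478) and the rest were not called. In this list the covariate left none called higher and 1 lower. The transcription factor *Hmx1* changed by -1.39 (adjusted p = 0.0367) and the ATP-gated channel *P2rx2* by -0.94 (adjusted p = 0.0174). Among genes of at least 50 CPM, the defensin *Defb6* changed by -0.52 (adjusted p = 0.0322), the monooxygenase *Fmo2* by -0.59 (adjusted p = 0.0353), *Srcin1* by -0.52 (adjusted p = 0.0148), *Lgi2* by -0.56 (adjusted p = 0.0355) and *Asb2* by -0.57 (adjusted p = 0.0433). Their isotype values were -0.66, -0.86, -0.47, -0.50 and -0.55 in that order. Other abundant genes were below PBS under the Ab and not called with isotype. The mucus protein *Fcgbp* changed by -0.71 (adjusted p = 0.0231), *Clca3a2* by -0.76 (adjusted p = 0.0318), the protease inhibitor *Serpinb3b* by -0.58 (adjusted p = 0.046) and *Aif1l* by -0.53 (adjusted p = 0.0398).

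Some genes called lower differed little between the OVA-challenged groups. The 5 of at least 5 CPM whose log2 fold change between anti-IL-4Ra and isotype was nearest to 0 were *Lrrc30*, *Clic3*, *Bcl7a*, *Cs* and *Spg7*. They were below PBS by small amounts, with log2 fold changes of -0.86, -0.39, -0.25, -0.17 and -0.13 under the Ab and -0.85, -0.37, -0.26, -0.17 and -0.13 with isotype. Muscle expresses several of the genes below PBS in both groups, *Asb2*, *Lrrc30* and the mitochondrial enzyme gene *Cs* among them, and the summed muscle genes also lay lower there. None of 28 muscle genes tested had a positive log2 fold change under the Ab. Their median was -0.47 with none called, and with isotype it was -0.74 with 21 called lower. Summed, they took 11645 to 21604 CPM in the PBS libraries, 9204 to 13602 CPM under the Ab and 7405 to 11099 CPM with isotype. The part of muscle RNA in these results was not tested.

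**Figure D2:**
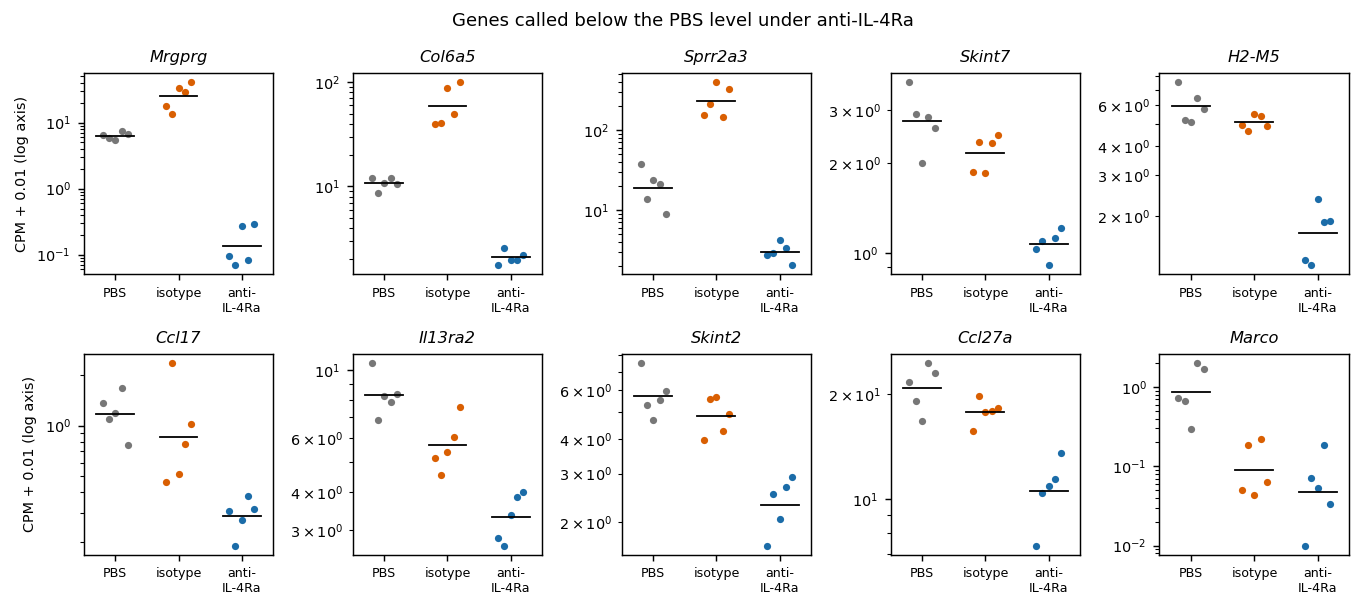
The CPM of 10 genes called below PBS is plotted on a log axis with 0.01 added, 1 point a library and a bar at the geometric mean of the 5 libraries of each group. In *Mrgprg*, *Col6a5* and *Sprr2a3* the isotype points lie above the PBS points and the anti-IL-4Ra points below them, while in *H2-M5*, *Skint2* and *Ccl27a* the isotype points lie within or just beneath the PBS range and in *Marco* both OVA-challenged groups lie low.

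Genes of antibody-secreting cells led those that stayed above PBS. *Ighg1*, the constant gene of IgG1, stood at 0.247, 0.543, 0.283, 0.516 and 0.844 CPM in the PBS libraries. In anti-IL-4Ra libraries 1 to 5 it read 29.5, 91.6, 1451, 44.5 and 172 CPM, and the isotype libraries held 48.2 to 536 CPM. Replicate 3 of the treated group was far above the other 4, and even the lowest treated library was above the highest PBS library. This gave a log2 fold change of 9.53 ± 1.42 (adjusted p = 0.00847) under the Ab and 8.55 (adjusted p = 0.00216) with isotype, and the direct comparison of anti-IL-4Ra with isotype gave 0.98 (adjusted p = 0.489). Without replicate 3 the first was 7.45 (adjusted p = 0.00122). *Igha*, the constant gene of IgA, read 5.25, 5.41, 8.81, 4.72 and 5.97 CPM with PBS and 78.1, 133, 146, 48.2 and 96.1 CPM with the Ab, 4.05 ± 0.53 (adjusted p = 0.00411). The isotype libraries, at 4.999 to 47.1 CPM, were lower, and anti-IL-4Ra exceeded isotype by 1.79 (adjusted p = 0.0273).

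The kappa constant gene *Igkc* stood at 9.21, 4.78, 6.33, 2.87 and 2.41 CPM with PBS and 79.1, 168, 888, 77.0 and 184 CPM with the Ab, 5.76 ± 0.88 (adjusted p = 0.00928). *Jchain*, which joins IgA and IgM into polymers, stood at 2.72, 1.49, 2.12, 0.86 and 0.844 and 24.9, 47.3, 185, 18.3 and 42.2 CPM, 5.29 ± 0.80 (adjusted p = 0.00928). With the lacrimal covariate the changes of *Ighg1*, *Igha*, *Igkc* and *Jchain* were 9.90 (adjusted p = 0.00929), 4.04 (adjusted p = 0.0159), 6.52 (adjusted p = 0.00606) and 5.98 (adjusted p = 0.00768). All 4 were thus called with and without it. Their size rested in part on replicate 3, without which *Igkc* was at 4.63 (adjusted p = 0.00172) and *Jchain* at 4.35 (adjusted p = 0.00181). *Mzb1*, a chaperone of plasma cells, changed by 3.51 (adjusted p = 0.0148), the lambda constant gene *Iglc2* by 2.84 (adjusted p = 0.0308) and *Pigr*, the epithelial receptor that carries polymeric antibody into secretions, by 1.62 (adjusted p = 0.0362). These made 7 of 19 genes of the plasma cell and immunoglobulin list called higher and 0 lower, with a median log2 fold change of 1.70. That was 36.8% of the list, beside 2.28% of all tested genes, and the covariate left 6 called higher and a median of 1.66. With isotype 7 were called higher and the median was 0.43. *Ighe*, the constant gene of IgE, was at 0 in all PBS libraries, at 0.0852, 2.02, 0.0146, 0.0247 and 0.0472 CPM with the Ab (adjusted p = 0.117) and at 0.695 to 6.94 CPM with isotype (adjusted p against PBS = 0.0146). Anti-IL-4Ra replicate 2 held most of the treated group's *Ighe*. The 22 variable, diversity and joining segments tested were counted over immunoglobulin and T cell receptor genes together. They summed to 1.36 to 2.11 CPM over the tested genes with PBS, 15.8 to 118 with isotype and 17.6 to 464 with anti-IL-4Ra. Of these segments, 6 were called higher.

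The earlier B cell markers were less clearly displaced. *Spib* changed by 1.999 (adjusted p = 0.0231) and *Pou2af1*, a B cell coactivator, by 2.38 (adjusted p = 0.0231), and these were the 2 called of 13 B cell genes. *Ms4a1* (CD20) was at 0.89 (adjusted p = 0.221). The median of the list was 0.96 under the Ab and 0.80 with isotype. Without anti-IL-4Ra replicate 3 the first was 0.50, below the isotype value, so the order of the medians rested on that library. The covariate left 2 called higher and a median of 1.28.

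T cell genes remained above PBS in part. *Cd4* stood at 3.95, 2.55, 3.88, 4.22 and 3.34 CPM with PBS and 8.52, 9.31, 16.9, 5.11 and 10.6 CPM with the Ab. Replicate 3 was the highest treated library, replicate 4 the lowest, and all 5 exceeded the PBS libraries. Its log2 fold change was 1.495 ± 0.32 (adjusted p = 0.0303), beside 1.70 (adjusted p = 0.00506) with isotype, and anti-IL-4Ra against isotype gave -0.20 (adjusted p = 0.676). *Foxp3*, the factor of regulatory T cells, read 0.99, 0.662, 0.973, 1.15 and 0.931 CPM with PBS and 2.45, 2.40, 4.25, 1.41 and 2.22 CPM with the Ab, 1.44 ± 0.29 (adjusted p = 0.0255). Its change was 1.61 (adjusted p = 0.00414) with isotype and 1.76 (adjusted p = 0.0235) with the covariate, where that of *Cd4* was 1.73 (adjusted p = 0.0506). The adhesion receptor *Cd2* changed by 1.13 (adjusted p = 0.0277) and the inhibitory receptor *Tigit* by 1.54 (adjusted p = 0.0402). These were the 4 called higher of 28 T cell genes (14.3%, beside 2.28% of all tested genes), with 0 lower. The median of the list was 0.65 under the Ab beside 0.72 with isotype, where 14 were called higher. Without anti-IL-4Ra replicate 3 the median under the Ab was 0.36, so its nearness to isotype rested on that library. The covariate left 3 called higher and a median of 0.75. *Trac* was at 0.84 (adjusted p = 0.0692) and *Cd3e* at 0.26 (adjusted p = 0.574) under the Ab. Of 17 cytotoxic and type 1 lymphocyte genes 1 was called higher, *Gzmb* (granzyme B), which stood at 0.316, 0.255, 0.177, 0.248 and 0.351 CPM with PBS, 0.98, 0.995, 1.37, 0.84 and 0.827 CPM with the Ab and 1.25 to 6.57 CPM with isotype. The log2 fold change was 1.89 ± 0.39 (adjusted p = 0.0266) against PBS and -1.60 (adjusted p = 0.0146) against isotype, so the gene was above the first group and below the second. With the covariate it was 2.13 (adjusted p = 0.0561) against PBS, and no gene of the list was called. Of 18 adhesion and leukocyte entry genes 3 were called higher (16.7%), among them the integrin chain *Itga4* (0.84, adjusted p = 0.0316) and the adhesion molecule *Icam1* (0.51, adjusted p = 0.0444), and the covariate left 1. These calls depended on single libraries. *Cd4* was called in 16 of 25 alternative fits, *Foxp3* in 19 of 25 and *Gzmb* in 17 of 25, the highest adjusted p over libraries left out being 0.0824, 0.0739 and 0.0739.

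Monocyte and macrophage genes formed the next group. The receptor *Ccr2*, the monocyte receptor for CCL2, stood at 12.96, 10.5, 14.01, 13.5 and 13.3 CPM with PBS and 29.8, 33.3, 35.7, 15.6 and 21.7 CPM with the Ab, 1.08 ± 0.24 (adjusted p = 0.0348). The PBS libraries were close together and every treated library was above them. With isotype it stood at 19.6 to 51.1 CPM. *Ccr3* and *Ccr2*, which lie next to each other on chromosome 9, were among the 3 called higher of 20 chemokine receptors, and none was called lower. This list lost every call with the covariate, the replicate block, the linear model on log2(FPKM + 1) and an adjusted p under 0.01. It also lost every call without PBS replicate 1, 2, 3 or 4 or anti-IL-4Ra replicate 2 or 5. Its median was 0.35, or 0.55 with the covariate, and *Ccr2* was then at 1.27 (adjusted p = 0.0615). *Lyz2*, lysozyme of myeloid cells, read 233, 208, 215, 222 and 218 CPM with PBS and 345, 381, 469, 269 and 339.6 CPM with the Ab, 0.72 ± 0.16 (adjusted p = 0.0318), and 189.9 to 341 CPM with isotype (0.30, adjusted p = 0.198). *Mpeg1* changed by 0.84 (adjusted p = 0.0309), *Ms4a4c* by 1.54 (adjusted p = 0.0309), *Ms4a7* by 1.24 (adjusted p = 0.0318), *Ms4a6c* by 0.87 (adjusted p = 0.0386) and the nitric oxide synthase *Nos2* by 1.93 (adjusted p = 0.036). These were the 6 called higher of 28 monocyte and macrophage genes (21.4%), with 0 lower and a median of 0.70 beside 0.98 with isotype. The covariate left 1 called higher and a median of 0.85, and *Lyz2* was then at 0.84 (adjusted p = 0.0592). *Irf8* and *Batf3*, factors of monocytes and dendritic cells, changed by 0.70 (adjusted p = 0.0324) and 0.95 (adjusted p = 0.0336). *Ccr2* was called in 15 of 25 alternative fits and *Lyz2* in 16 of 25, their adjusted p reaching 0.0909 and 0.0848 with a library left out.

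Some complement genes were called above PBS. *C1qa*, which encodes a chain of the first complement component, stood at 48.1, 55.9, 52.2, 47.9 and 52.7 CPM with PBS and 78.8, 81.0, 98.9, 71.5 and 78.5 CPM with the Ab, 0.67 ± 0.15 (adjusted p = 0.0337). All treated libraries were above all PBS libraries. Its neighbors *C1qb* and *C1qc* changed by 0.79 (adjusted p = 0.0289) and 0.72 (adjusted p = 0.0322), the alternative pathway factor *Cfb* by 0.62 (adjusted p = 0.0231) and the anaphylatoxin receptor *C3ar1* by 1.14 (adjusted p = 0.0304). They were the 5 called of 18 complement genes, whose median was 0.32 beside 0.17 with isotype. With the covariate *C1qa* was at 0.75 (adjusted p = 0.0759) and was not called. Of the whole list 27.8% was called higher, where 2.28% of all tested genes were, and the covariate left 1 called higher and a median of 0.38.

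A few chemokines were called above PBS, at different distances from isotype. *Ccl8*, which attracts monocytes and T cells, read 32.5, 27.4, 29.8, 37.9 and 38.8 CPM with PBS and 89.0, 91.4, 129, 52.3 and 80.5 CPM with the Ab, 1.41 ± 0.28 (adjusted p = 0.0252). With isotype it was at 139.6 to 434 CPM, and anti-IL-4Ra lay below isotype, at -1.71 (adjusted p = 0.00441). The 3 groups did not overlap. *Ccl5* (RANTES), a T cell and monocyte attractant, stood at 0.66, 0.967, 1.22, 1.13 and 1.05 CPM with PBS and 3.20, 2.83, 3.02, 1.90 and 1.89 CPM with the Ab, 1.36 ± 0.23 (adjusted p = 0.0147), and at 1.86 to 3.72 CPM with isotype. The Ab and isotype groups differed by 0.03 (adjusted p = 0.936). With the covariate *Ccl8* was at 1.55 (adjusted p = 0.052) and *Ccl5* at 1.44 (adjusted p = 0.0335), so of these 2 *Ccl5* stayed called. *Ccl9* changed by 0.93 (adjusted p = 0.0252) and *Cxcl2*, a neutrophil attractant, by 1.91 (adjusted p = 0.0431). In the list of 28 chemokines 3 were called higher (*Ccl5*, *Ccl9* and *Cxcl2*) and 1 lower (*Ccl27a*), with a median of 0.60 beside 1.27 with isotype. The calls made 10.7% and 3.57% of the list, beside 2.28% and 1.44% of all tested genes. The covariate left 1 called higher and a median of 0.72. *Ccl8* belonged to the list of IL-4 and IL-13 targets, described further on.

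Granulocyte genes were divided. *Mcpt8*, the basophil protease, had 1, 4, 3, 0 and 3 counts in the PBS libraries and 32, 77, 67, 12 and 32 in the anti-IL-4Ra libraries. The treated libraries read 0.682, 1.16, 0.976, 0.296 and 0.756 CPM, all above the highest PBS library at 0.0679 CPM. The isotype range was 0.899 to 6.26 CPM. The log2 fold change was 4.32 ± 0.72 (adjusted p = 0.0147) against PBS and -1.74 (adjusted p = 0.0384) against isotype. *Fcer1a*, the binding chain of the high-affinity IgE receptor, changed by 1.66 (adjusted p = 0.0291) against PBS, and the integrin *Itga2b* by 0.48 (adjusted p = 0.0148). They were the 3 called of 11 basophil genes (27.3%, beside 2.28% of all tested genes), of median 0.83 beside 1.34 with isotype. The covariate left 1 called higher and a median of 0.96, and *Mcpt8* was then at 4.67 (adjusted p = 0.0295). *Cd200r3* was at 1.22 (adjusted p = 0.093) and *Ms4a2* at 0.83 (adjusted p = 0.149). Eosinophil genes went both ways. *Ccr3*, the eotaxin receptor, read 1.72, 1.87, 1.38, 1.47 and 1.39 CPM with PBS and 2.94, 5.47, 8.39, 1.93 and 5.43 CPM with the Ab, 1.63 ± 0.36 (adjusted p = 0.0309), and the granulocyte factor *Cebpe* changed by 1.60 (adjusted p = 0.0373). With the covariate *Ccr3* was at 1.89 (adjusted p = 0.052). *Ear1* and *Ear2* were called lower, at -3.13 (adjusted p = 0.0125) and -0.91 (adjusted p = 0.0472). *Ear1* had 17, 13, 19, 9 and 7 counts in the PBS libraries and 1, 1, 1, 1 and 2 in the anti-IL-4Ra libraries. That left 5 of 9 eosinophil genes not called, *Siglecf* at 1.38 (adjusted p = 0.0584) and *Il5ra* at 1.11 (adjusted p = 0.129) among them, and the covariate left 1 called higher and 1 lower. Without it each direction held 22.2% of the list, beside 2.28% and 1.44% of all tested genes. None of 16 neutrophil genes was called, their median being -0.02 under the Ab and 1.38 with isotype, where 11 were called higher. *S100a9* read 4.30, 2.64, 3.91, 52.3 and 1.51 CPM under the Ab, with replicate 4 far above the others. None of 15 mast cell genes was called, of median 0.18 beside 0.46. *Mcpt1*, the protease of mucosal mast cells, was at 0.17, 0.362, 0.175, 0.0741 and 0.118 CPM with the Ab, 0 to 0.0708 with PBS and 0.736 to 8.5000 with isotype. Its change was 3.08 (adjusted p = 0.0904) against PBS and -4.33 (adjusted p = 0.00292) against isotype.

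**Figure D3:**
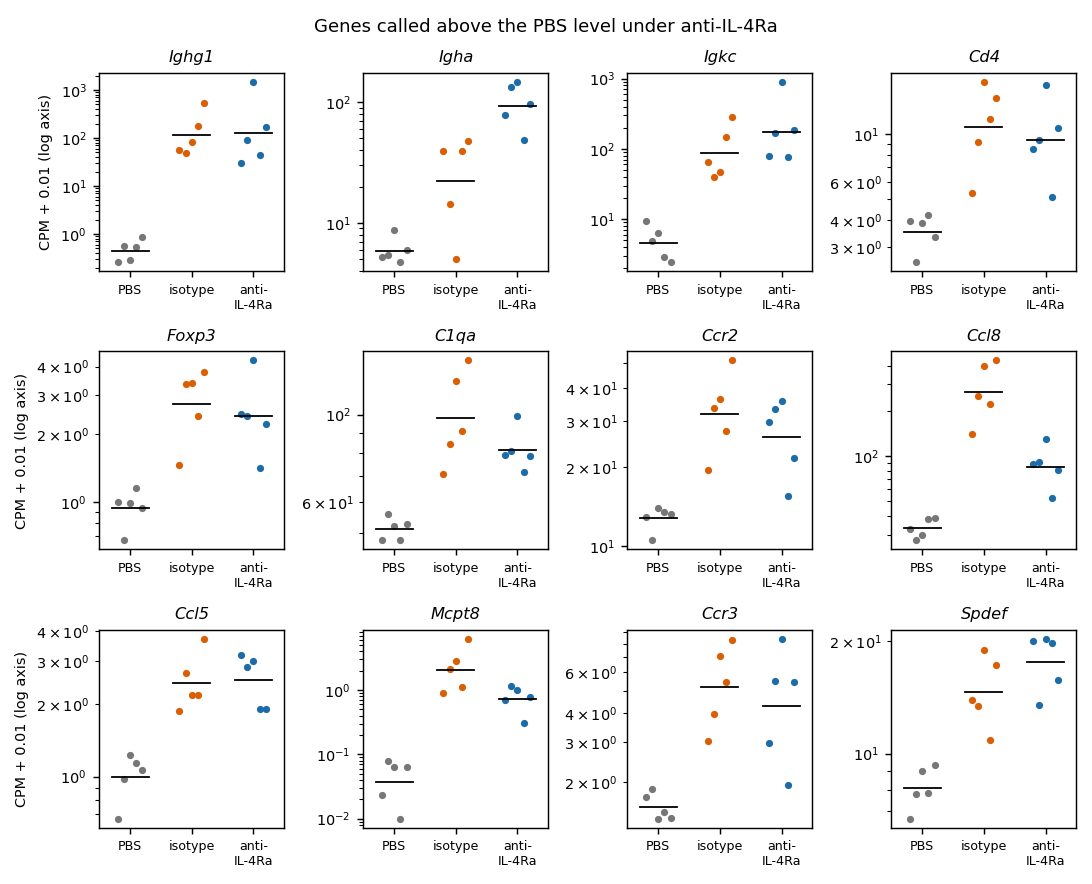
The CPM of 12 genes called above PBS is plotted on a log axis with 0.01 added, 1 point a library and a bar at the geometric mean of each group. The anti-IL-4Ra points lie above every PBS point in all 12 panels. They overlap with the isotype points in *Cd4*, *Foxp3* and *Ccl5*, lie below it in *Ccl8*, and reach above it in *Igha*, where the highest treated library was at 146 CPM.

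A few epithelial and signaling genes stayed above PBS with little spread. *Spdef*, a transcription factor of goblet cells, read 6.68, 7.77, 8.97, 7.82 and 9.31 CPM with PBS and 20.03, 13.5, 20.3, 19.8 and 15.8 CPM with the Ab, 1.14 ± 0.16 (adjusted p = 0.00569), and 10.9 to 18.9 CPM with isotype (0.87, adjusted p = 0.00365). It was the 1 called higher of 16 goblet cell and mucin genes. *Fcgbp*, called lower, was the other one called. In this list the covariate left 1 called higher and none lower. *Inpp5j*, a phosphoinositide phosphatase, stood at 2.17, 2.55, 2.44, 2.52 and 5.24 CPM with PBS and 9.22, 9.37, 9.31, 10.1 and 11.4 CPM with the Ab, 1.73 ± 0.21 (adjusted p = 0.00285). The 5 treated libraries lay close together, replicate 3 included, whereas PBS replicate 5 stood apart from its group. It was higher than with isotype too, by 0.74 (adjusted p = 0.031). With the covariate *Spdef* and *Inpp5j* were at 1.16 (adjusted p = 0.0235) and 1.45 (adjusted p = 0.00709). The NF-kB inhibitor *Tnip3* changed by 2.13 (adjusted p = 0.0147) and the protease inhibitor family member *Wfdc12* by 2.097 (adjusted p = 0.0153). The 5 genes of at least 5 CPM called higher and nearest to isotype were *F5*, *Itga2b*, *Rfx1*, *Nlk* and *Abcf1*, with log2 fold changes over PBS of 0.80, 0.48, 0.34, 0.24 and 0.14 under the Ab and 0.81, 0.46, 0.34, 0.25 and 0.14 with isotype.

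Other genes that OVA raised in the isotype group were not called different from PBS under the Ab. Of 24 IL-4 and IL-13 target genes, 16 were called higher with isotype (median log2 fold change 1.09), and under the Ab 2 were called higher (*Ccl8* and *Clec10a*), 2 lower (*Ccl17* and *Ear2*) and the median was -0.06. With the covariate none of the list was called in either direction. *Chil4*, a chitinase-like protein, had 0, 1, 0, 0 and 1 counts in the anti-IL-4Ra libraries and 5, 2, 0, 2 and 0 in the PBS libraries, while the isotype libraries held 24.2 to 308 CPM. *Alox15*, a lipoxygenase, read 21.6 to 62.7 CPM with the Ab and 21.1 to 47.2 with PBS, 0.14 ± 0.37 (adjusted p = 0.868). The eotaxin *Ccl11* was at 16.3, 18.3, 18.2, 19.0 and 17.8 CPM with the Ab, below all PBS libraries at 22.7 to 29.5 CPM, and its change of -0.56 ± 0.16 (adjusted p = 0.0593) did not pass the threshold. None of 30 cell cycle genes was called (median -0.22), where 23 were called higher with isotype (median 0.49). For 34 collagen and matrix genes the counts were 0 higher and 1 lower (*Mmp12*) under the Ab, against 20 higher and 2 lower with isotype.

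Interferon-stimulated genes were called about as often as genes at large, though 41 of the 42 tested had a positive log2 fold change under the Ab. Of 42 tested, 1 was called higher under the Ab and 29 with isotype, and the medians were 0.38 and 0.84. Over all genes tested the median under the Ab was -0.0043. With the covariate the list had a median of 0.56 and 1 called higher. Under the Ab this was 2.38% of the list, near the 2.28% called over all tested genes, where 9.53% of all genes were called higher with isotype. *Cxcl10* was at 1.12 (adjusted p = 0.227) under the Ab. The one called was *Irf8*. With replicate 3 left out, which raised the calls over all genes, 1 interferon-stimulated, 4 T cell, 6 monocyte and macrophage and 8 plasma cell and immunoglobulin genes were called higher, against 1, 4, 6 and 7 with it. The cornified envelope genes called lower went from 2 to 5 of 33 and the protease inhibitor and kallikrein genes from 1 to 5 of 22. Over all genes, the calls in that fit rose from 434 to 1301 higher and from 273 to 728 lower. In all, 25 of the 37 lists had a member called in the full comparison. The 12 lists with none were those of IL-17 genes, MHC class I, MHC class II, neutrophils, mast cells, alarmins, cell cycle, lipid mediator enzymes, tear proteins, meibomian lipid synthesis, skeletal muscle and hair follicle. A list without calls is not shown to be at the PBS level, since 4396 of the tested genes had an unadjusted p under 0.05 and few of them passed adjustment.

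**Figure D4:**
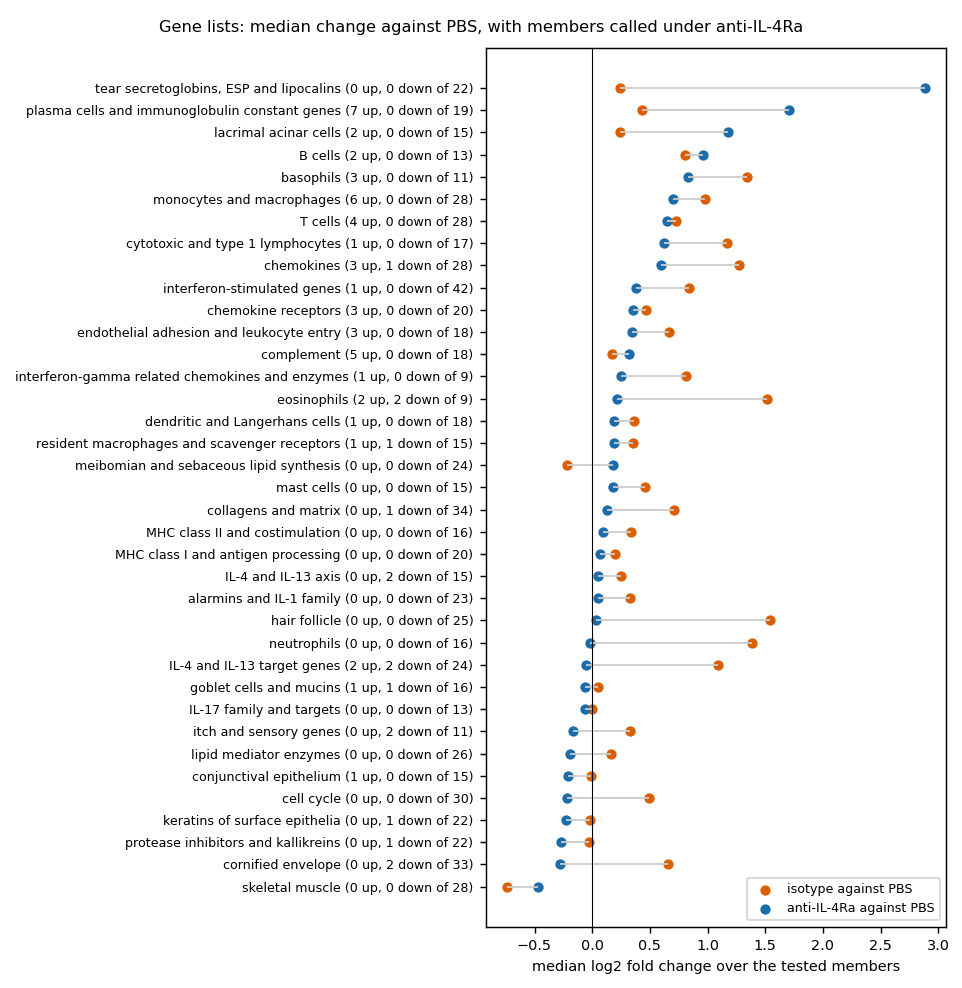
Each row is 1 of 37 gene lists, with its median log2 fold change against PBS under anti-IL-4Ra (blue) and isotype (orange) and, in its name, the members called higher and lower under the Ab. The blue points of the neutrophil, cell cycle, cornified envelope and IL-4 and IL-13 target lists lie at or below 0 while the orange points lie at 0.49 or more, and those of the tear and lacrimal lists lie far to the right with 2 members called.

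Of the 251 genes called higher under the Ab and not with isotype, 8 stayed called with the lacrimal covariate, as did 48 of the 183 that were called in both groups. The median log2 fold change of the 251 was 0.43, beside 0.12 with isotype, and several secretory genes among them were highest in the lacrimal-rich libraries. *Pigr* read 95.1, 93.8, 111, 103 and 209 CPM in the PBS libraries and 423, 247, 135, 549.9 and 524 CPM in the anti-IL-4Ra libraries, 1.62 ± 0.38 (adjusted p = 0.0362). Replicate 3, which was lacrimal-poor, fell within the PBS range, and PBS replicate 5, the most lacrimal-rich of its group, was the highest PBS library. With the covariate the change of *Pigr* was 0.78 (adjusted p = 0.23). *Serp1*, a protein of the endoplasmic reticulum that assists membrane protein synthesis, showed the same order at 143, 131, 139, 151 and 229 CPM with PBS and 353, 296, 154, 441 and 420.0 CPM with the Ab, 1.07 ± 0.25 (adjusted p = 0.0357), or 0.51 (adjusted p = 0.206) with the covariate. *Arfgap3*, *Tspan13* and *Plpp5* changed by 1.04 (adjusted p = 0.0362), 1.07 (adjusted p = 0.0412) and 1.19 (adjusted p = 0.0414) and had isotype values of 0.06, 0.09 and 0.11. The water channel *Aqp5* changed by 0.61 (adjusted p = 0.0398). With *Wfdc12*, given above, it made up the calls of the acinar list, and both enter the lacrimal score. Further secretory pathway genes in this set, named after their values were seen, were *Sec61b* (0.71), *Hyou1* (0.51), *Herpud1* (0.67) and *Dnajb9* (0.69). The 22 tear protein genes had a median log2 fold change of 2.89 with 0 called, and 0.24 with isotype. Whether the lacrimal share followed the treatment or the dissection cannot be told apart here, because 4 of 5 treated libraries and no other library had a score above 5.49.

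**Figure D5:**
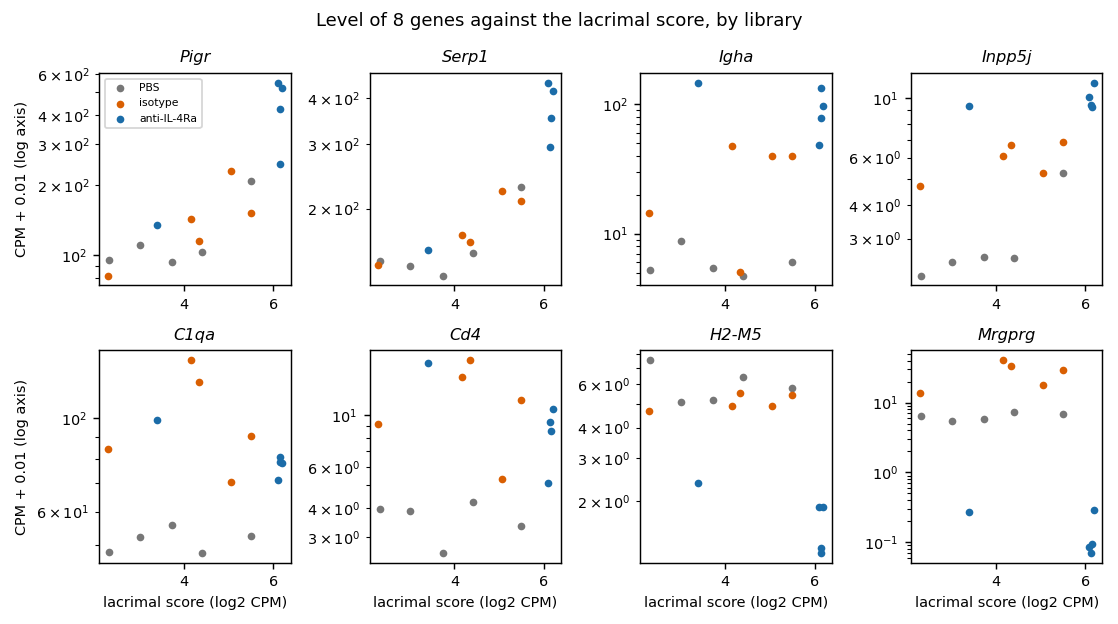
The CPM of 8 genes (log axis, 0.01 added) is plotted against the lacrimal score of the library, 1 point a library colored by group. *Pigr* and *Serp1* are highest in the 4 lacrimal-rich anti-IL-4Ra libraries. For *Igha*, *Inpp5j*, *C1qa* and *Cd4* the lacrimal-poor anti-IL-4Ra library, at a score of 3.40, stays above the PBS points, and for *H2-M5* and *Mrgprg* it stays below them.

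Along the chromosomes, 7 runs of 3 or more adjacent tested genes were called in 1 direction, 6 of them higher. Besides the *Skint* genes and the run that holds *Ccr3* and *Ccr2*, they were *C1qb*, *C1qc* and *C1qa* on chromosome 4, *Ms4a4c*, *Ms4a4b* and *Ms4a6c* on chromosome 19, *Gpr162*, *Cd4* and *Lag3* on chromosome 6, *Igkv3-10*, *Igkv3-7* and *Igkc* on the same chromosome, and *Sec11c*, *Grp* and *Lman1*. *Lag3*, an inhibitory receptor of T cells, changed by 0.78 (adjusted p = 0.0434) and *Gpr162* by 0.74 (adjusted p = 0.0248). *Grp*, gastrin-releasing peptide, changed by 2.23 (adjusted p = 0.0348) from at most 0.0885 CPM with PBS, while *Sec11c* and *Lman1*, at 0.91 (adjusted p = 0.0362) and 0.55 (adjusted p = 0.0398), are secretory pathway genes and were at 0.43 (adjusted p = 0.2) and 0.25 (adjusted p = 0.242) with the covariate. How reads in overlapping genes were assigned is not given in the sources used here.

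The genes called in the full comparison and in all 25 alternative fits, which changed the scaling, filter, tool or covariate or left out 1 library at a time, were 16 above PBS and 14 below it. Those above included *A530040E14Rik*, *Atf6*, *Ccl5*, *Eif5b*, *Fam171a1*, *Igha*, *Ighg1*, *Igkc*, *Inpp5j*, *Jchain*, *Nfxl1*, *Pou2f2*, *Spdef*, *Txndc11* and *Uap1*. Those below were *Acbd4*, *Btc*, *Ccl27a*, *F830045P16Rik*, *H2-M5*, *Il13ra2*, *Mill1*, *Mpp3*, *Mrgprg*, *Npas2*, *Skint2*, *Skint7*, *Skint8* and *Sprr2a3*. Those not described above were named after their values were seen. Among the second set, the circadian factor *Npas2* changed by -0.63 (adjusted p = 0.00739) and the growth factor *Btc* (betacellulin) by -0.61 (adjusted p = 0.0107).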

How the data were processed

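Stranded mRNA libraries were made from conjunctival tissue of 15 mice, 5 in each of 3 groups taken from the labels. The authors mapped paired-end reads to the mouse B38 genome with the Ensembl R100 gene model in Omicsoft Array Studio and deposited expected counts per gene, unnormalized and not always whole. Methods name 2 outliers without saying which, and none was removed here. A few genes are not reported here. The deposited counts were rounded, genes reaching 10 counts in 5 or more of the 15 libraries were kept, and edgeR 4.0.16 (R 4.3.3) fitted all 3 groups after TMM scaling with a quasi-likelihood test. A call is a Benjamini-Hochberg adjusted p under 0.05 over the 19006 genes tested. SE is the log2 fold change divided by the square root of F, and CPM was computed by edgeR from the TMM-scaled library sizes. The test was also run on simulated counts with known changes.

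Alternatives were upper quartile and DESeq2 1.42.0 scaling, the DESeq2 test, limma 3.58.1 voom with quality weights, a linear model on log2(FPKM + 1) scaled at the 75th quantile after the study's methods, 2 other filters, the 2 groups alone, the lacrimal score as a covariate, stricter thresholds and each library left out. Named genes were the 20 furthest above and 20 furthest below PBS among called genes of at least 1 CPM without overlap, the 10 extremes each way at 50 CPM, members of 37 gene lists and of runs of neighbors, and the 5 each way nearest to isotype. The comparison, its genes and lists were chosen with earlier results of these data known. Libraries of a group differed by more than sampling noise (chi-square per degree of freedom 19.8 to 1077). The labels name each library as a mouse and do not say whether cages or days differed. Gene positions are those of GENCODE M21 (GRCm38), found for 18984 of the tested genes, and promoter sequences are RefSeq's (GRCm38.p6). Intervals cover counting error only.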

Additional observations from a re-analysis of the deposited data

Results flagged for a closer look

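Among 111 groups of 5 libraries (37 genes with library values in the text, in 3 groups), 8 had 1 library whose gap to the others on the log2(CPM + 0.1) scale took more than Dixon's 95% critical share of the range. Chance flags about 1 in 20 groups, so this number is near that. PBS replicate 5, the most lacrimal-rich PBS library, was high for *Inpp5j* (5.24 CPM), *Pigr* (209 CPM) and *Serp1* (229 CPM). *Ccr2* was low in PBS replicate 2 (10.5 CPM). *Ighe* was high in anti-IL-4Ra replicate 2 (2.02 CPM) and the neutrophil gene *S100a9* in anti-IL-4Ra replicate 4 (52.3 CPM). *Pyy* was low in isotype replicate 4 (0.629 CPM) and was found in anti-IL-4Ra replicate 5 (0.0236 CPM, 1 count) and in no other library of that group.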

How the results depend on the processing

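Genes called above and below PBS numbered 434 and 273. Upper quartile scaling gave 354 and 336, DESeq2 size factors in edgeR 458 and 229, edgeR's own filter 438 and 277 and the 2 groups alone 336 and 189. More genes were called by the DESeq2 test (1238 and 728) and limma voom (1387 and 931). Fewer were called by the linear model on log2(FPKM + 1) (80 and 217), without a filter (211 and 116), with the lacrimal covariate (63 and 20), at 1.5-fold or more (202 and 70) and at an adjusted p under 0.01 (12 and 14). With a replicate block the counts were 212 and 100. The numbers did not pair the libraries, since same-number correlations ran from -0.38 to 0.45, 4 of 15 were over 0.1 and 4 of 15 libraries correlated best with their own number. Leaving out 1 library gave 37 to 1301 genes higher and 40 to 728 lower. The counts were largest without anti-IL-4Ra replicate 3 (1301 and 728), the lacrimal-poor treated library, and below 70 in both directions without PBS replicate 1 (42 and 40) or 2 (37 and 45) or anti-IL-4Ra replicate 1 (64 and 58) or 5 (64 and 60). They moved by over 1.5 times also without PBS replicate 3 (122 and 143) or 4 (65 and 70), anti-IL-4Ra replicate 2 (150 and 79) or 4 (164 and 112) or isotype replicate 4 (281 and 176). Without isotype replicate 2 (577 and 414) the lower count moved that far and without isotype replicate 3 (275 and 187) the higher one. Isotype libraries enter through the shared spread. The cause was not tested. Of the 107 named genes that were called, none changed sign in any fit, and 32 stayed called with the covariate, 65 with the block and 34 in the FPKM model. Genes under 1 CPM rest on few counts.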
